A study of Homo sapiens with 6 samples.

Results

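The KLF family members measured here were 10 Krüppel-like factor genes: KLF2, KLF3, KLF6, KLF7, KLF9, KLF10, KLF11, KLF12, KLF13 and KLF16. They were taken by gene symbol from a table of 61541 genes, each had a single row there, and all 10 passed the filter on low counts that left 17678 genes for testing. The RNA came from H9, an established cutaneous T-cell lymphoma line that the labels give as wild type. The 3 control libraries were from cells given the solvent DMSO, and 3 more were from cells given AZD4573, an inhibitor of the kinase CDK9. Exposure was for 4 h per the titles and to 50 nM per the study's figure legends, whereas its discussion names a longer exposure. The study asked whether T-cell lymphomas driven by GATA3 depend on CDK9. The sources used here do not say whether the 3 libraries of a group came from separate cultures, so the tests measure the spread between libraries of a single line.

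KLF proteins are transcription factors with C-terminal zinc fingers that bind GC-rich and CACCC sequences, the sites that the related SP proteins also bind. Their N-terminal parts differ: KLF2, KLF6 and KLF7 are mostly activators, KLF3 and KLF12 recruit the corepressor CtBP, and KLF9, KLF10, KLF11, KLF13 and KLF16 bind the corepressor SIN3A. In T cells KLF2 is known for holding the cell quiescent and for sustaining trafficking receptors. CDK9 is the kinase of P-TEFb, which releases paused RNA polymerase II into elongation, and many KLF genes are immediate early genes with short-lived transcripts.

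The total count was 70367303 to 76571157 in the DMSO libraries and 52101868 to 63795185 in the AZD4573 libraries, of which the 10 members took 48598 to 71159 counts. Lineage markers were checked first. Of the 9 T-cell markers listed, CD3D, CD3E, CD3G, TRAC, PTPRC and GATA3 had mean levels over 50 CPM (counts scaled to the same library total) in DMSO, CD4 was at 3.82 CPM and CD28 at 5.85 CPM, while CD2 was all but absent with at most 13 counts in a library. Of 8 markers of other cell types, EPCAM at 155 CPM and CD79A at 57.8 CPM were well above 0 in DMSO, COL1A1 was at 6.31 CPM, and MS4A1, CD14, LYZ, CSF1R and KRT18 were under 1 CPM. After AZD4573 the summed CPM of the T-cell list was 1864 to 2027 against 1122 to 1132 in DMSO, with PTPRC going from 413 to 873 CPM, while CD28 fell (log2 -0.43, adjusted p 0.00227). Scaled to the mitochondrial mRNAs, PTPRC and TRAC were higher, CD3D, CD3G and CD28 were lower, and CD3E, CD4 and GATA3 were not called. The summed CPM of the other list was 229.8 to 239.1 against 210.9 to 233.5. The part of these shifts in the results was not tested, and neither was the identity of the line.

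The direction of several changes depended on what the libraries were scaled to. Levels are given in CPM after TMM scaling, which assumes that most genes do not change, and the median log2 fold change of all genes tested was then 0.03. The 13 mRNAs made in mitochondria, which RNA polymerase II does not transcribe, rose from 3.13% ± 0.0929 of counts in DMSO to 4.85% ± 0.162 in AZD4573 (SD, n = 3). Scaled to those mRNAs, the median of all genes moved to -0.71. Which scaling is nearer to the amount of RNA in a cell was not tested, and in bulk RNA fewer cells and less RNA per cell cannot be told apart.

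With TMM scaling 4 of the 10 members fell and 6 rose at an adjusted p under 0.05 by the quasi-likelihood test of edgeR, with p-values adjusted (Benjamini-Hochberg) across every gene tested. KLF2, KLF11, KLF3 and KLF9 fell, and KLF6, KLF12, KLF7, KLF10, KLF13 and KLF16 rose, but scaled to the mitochondrial mRNAs only KLF6 of those 6 rose. Over all genes tested 37.4% were lower and 37.3% were higher on that criterion, so a call on its own does not set the members apart from the rest. With a fold of at least 1.5 added, 3 members were lower (KLF2, KLF3 and KLF11) and 4 higher (KLF6, KLF7, KLF10 and KLF12), beside 23.7% and 22.7% of all genes. KLF13, at 1.499-fold, fell just short of that limit. In all 10 members the DMSO and AZD4573 libraries did not overlap, 4 lower and 6 higher, which 38.7% and 39% of all genes also showed. The median log2 fold change was 0.47 over the members against 0.03 over all genes, and the summed level of the 10 members was 660 to 678 CPM in DMSO and 1116 to 1219 CPM in AZD4573. Scaled to the mitochondrial mRNAs the median of the members was -0.27 against -0.71 over all genes, and their summed counts came to 2.14% to 2.27% of the mitochondrial mRNA counts in DMSO and to 2.27% to 2.35% in AZD4573.

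**Figure D1:**
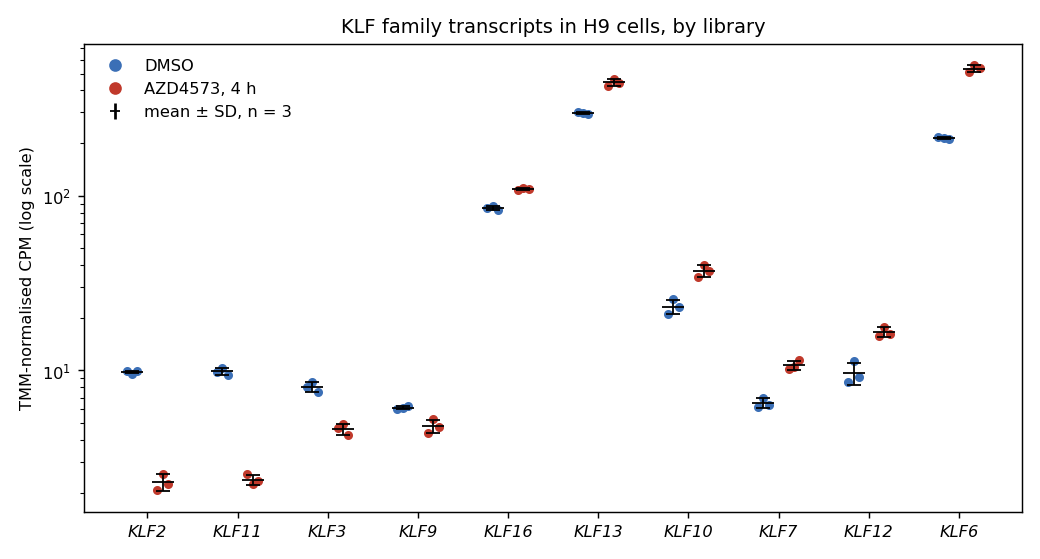
Level of each KLF member in every library, as TMM-normalised CPM on a log axis, with genes ordered from the deepest fall to the steepest rise. Points are libraries (DMSO in blue, AZD4573 in red), and bars are the mean ± SD of 3. The groups are apart in all 10 genes, with KLF2 and KLF11 near 10 CPM in DMSO and near 2 in AZD4573, and KLF6 going from 214 to 534 CPM.

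KLF2 and KLF11 fell furthest. KLF2 (ENSG00000127528; GRCh38 chr19:16324826-16328685, plus strand) was at 9.87, 9.60 and 9.92 CPM in the DMSO libraries and at 2.08, 2.56 and 2.24 CPM in the AZD4573 libraries. Every treated library was thus below every control by a wide margin, on 106 to 146 counts each. The fall was 4.26-fold (log2 fold change -2.09, SE 0.106, adjusted p 1.01e-09), which placed KLF2 at rank 442 from the lowest of the 17678 genes tested, and it was 7.12-fold when scaled to the mitochondrial mRNAs. KLF11 (ENSG00000172059; chr2:10042849-10054836, plus strand), a TGF-beta-inducible repressor that binds SIN3A, had 9.86, 10.4 and 9.38 CPM in DMSO and 2.55, 2.23 and 2.33 CPM in AZD4573. The treated libraries again lay together, far under the controls. Its fall of 4.17-fold (log2 -2.06, SE 0.103, adjusted p 9.41e-10) put it at rank 470 from the lowest.

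KLF3 and KLF9 fell by less. KLF3 (ENSG00000109787; chr4:38664197-38701517, plus strand), a CtBP-binding repressor of lymphoid and erythroid genes, was at 8.002, 8.59 and 7.57 CPM in DMSO and at 4.66, 4.91 and 4.27 CPM in AZD4573. The gap between the groups was larger than the spread within either, and the fall was 1.75-fold (log2 -0.80, SE 0.0991, adjusted p 6.05e-06). KLF9 (ENSG00000119138; chr9:70384604-70414657, minus strand), a repressor induced by glucocorticoid and thyroid hormone, had 6.03, 6.07 and 6.30 CPM in DMSO and 4.40, 5.26 and 4.73 CPM in AZD4573. This was the smallest fall of the 4, at 1.28-fold (log2 -0.35, SE 0.103, adjusted p 0.00689). All 4 genes were lower under each scaling tried.

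KLF6 was the only member that rose under both scalings. KLF6 (ENSG00000067082; chr10:3775996-3785281, minus strand), a broadly expressed and injury-inducible activator, was at 215, 215 and 211 CPM in DMSO and at 509, 557 and 535 CPM in AZD4573. Every treated library stood far above every control. The rise was 2.50-fold (log2 1.32, SE 0.0434, adjusted p 4.05e-11) with TMM scaling and 1.49-fold scaled to the mitochondrial mRNAs (adjusted p 2.60e-08). KLF6 stood at rank 2032 from the highest of all genes tested.

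KLF12, KLF7 and KLF10 rose by similar factors with TMM scaling but not when scaled to the mitochondrial mRNAs, where their log2 fold changes were 0.04, -0.02 and -0.06 with adjusted p of 0.724, 0.844 and 0.508. KLF12 (ENSG00000118922; chr13:73686089-74134404, minus strand), the CtBP-binding relative of KLF3, had 8.54, 11.3 and 9.23 CPM in DMSO and 15.8, 17.8 and 16.2 CPM in AZD4573, a rise of 1.72-fold (log2 0.78, SE 0.0985, adjusted p 7.57e-06). It had the widest relative spread among controls, and the groups were still apart. KLF7 (ENSG00000118263; chr2:207074137-207173856, minus strand), the nearest relative of KLF6 and an activator best known from neurons, was at 6.18, 7.002 and 6.38 CPM in DMSO and at 10.3, 10.5 and 11.4 CPM in AZD4573. That was 1.65-fold higher (log2 0.72, SE 0.0883, adjusted p 5.88e-06). KLF10 (ENSG00000155090, on chromosome 8), the TGF-beta-inducible early gene closest to KLF11, had 20.9, 25.5 and 23.2 CPM in DMSO and 34.3, 40.1 and 37.1 CPM in AZD4573, 1.60-fold higher (log2 0.68, SE 0.0774, adjusted p 2.71e-06).

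KLF13 and KLF16, abundant SIN3A-binding members, rose with TMM scaling and fell when scaled to the mitochondrial mRNAs. KLF13 (ENSG00000169926; chr15:31326835-31435665, plus strand), known in T cells for activating the chemokine gene CCL5 late after stimulation, was at 302, 297 and 293 CPM in DMSO and at 425, 468 and 443 CPM in AZD4573. Its log2 fold change was 0.58 (SE 0.0438, adjusted p 4.18e-08) with TMM scaling and -0.16 (adjusted p 0.014) with the mitochondrial scaling. KLF16 (ENSG00000129911; chr19:1852399-1863579, minus strand) was at 84.8, 87.7 and 83.3 CPM in DMSO and at 108, 111 and 109 CPM in AZD4573. It rose by the least of the 6, with a log2 fold change of 0.36 (SE 0.0425, adjusted p 4.40e-06), against -0.38 (adjusted p 2.56e-05) with the other scaling.

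**Figure D2:**
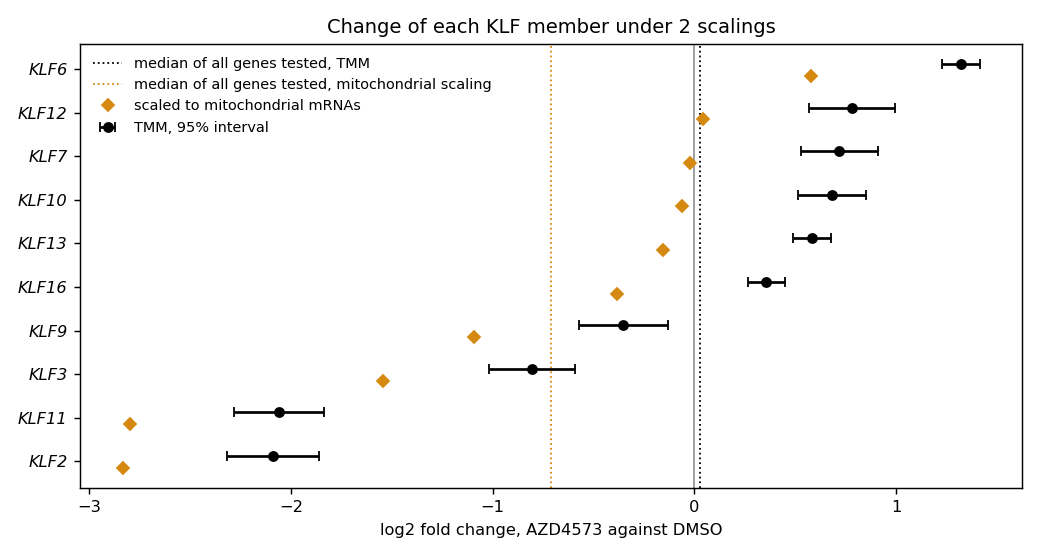
log2 fold change of each member, AZD4573 against DMSO. Black points with 95% intervals are from TMM scaling, orange diamonds from scaling to the 13 mitochondrial mRNAs, and dotted lines are the medians of all genes tested (0.03 and -0.71). KLF2, KLF11, KLF3 and KLF9 lie left of 0 and KLF6 right of 0 under both, whereas KLF7, KLF10, KLF13 and KLF16 cross 0 and KLF12 stops at 0.04.

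Levels were compared between genes per kilobase of the canonical transcript, which corrects for that length only. All exons of KLF13 cover 9429 bases against 6845 in its canonical transcript, whereas in KLF2 both lengths are 2820. The order of the genes and their shares thus depend on the length chosen. In DMSO the order of the mean levels was KLF6 (46.6 CPM per kb), KLF13 (43.4), KLF16 (29.4), KLF10 (7.96), KLF2 (3.47), KLF11 (2.45), KLF3 (1.44), KLF9 (1.18), KLF12 (0.874) and KLF7 (0.779), and only the libraries of the last pair overlapped. In AZD4573 the first 4 places were the same, with KLF6 at 116 CPM per kb, KLF13 at 65.1, KLF16 at 37.6 and KLF10 at 12.7. Below them the order was turned over. KLF12 (1.501) and KLF7 (1.28), last in DMSO, came next, KLF9 (0.922), KLF3 (0.825) and KLF2 (0.814) followed without a gap between neighbours, and KLF11 (0.587) was last.

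As shares of the summed level per kb of the 10 genes, which no scaling between libraries can move, KLF6 went from 33.9% ± 0.318 in DMSO to 48.9% ± 0.184 in AZD4573. KLF13 went from 31.6% ± 0.512 to 27.4% ± 0.178 and KLF16 from 21.4% ± 0.248 to 15.8% ± 0.485 (SD, n = 3). The share of KLF6 thus grew while those of the other abundant members shrank, and KLF6, KLF13 and KLF16 together made up 86.8% and 92.1%. The 4 genes that fell, KLF2, KLF3, KLF9 and KLF11, together went from 6.21% to 1.32%. For KLF10 the shares were 5.78% ± 0.520 and 5.36% ± 0.191, a difference within the spread of the controls.

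**Figure D3:**
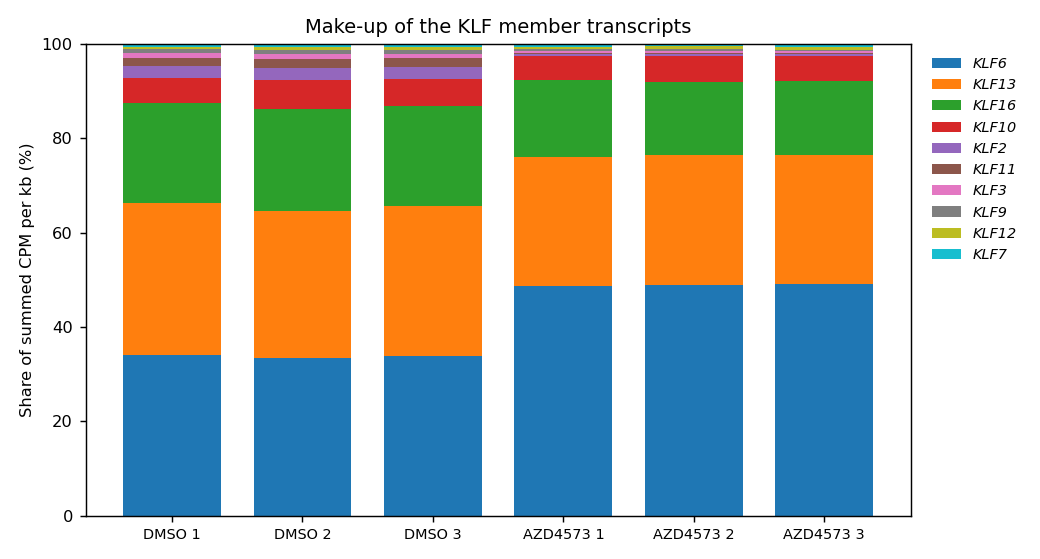
Share of each member in the summed level per kb of the 10 genes, in percent, with 1 stacked bar for each library. The KLF6 segment is near 34% in the 3 DMSO bars and near 49% in the 3 AZD4573 bars, and the bands of KLF2 and KLF11 shrink from 2.53% and 1.78% to 0.342% and 0.248%.

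The balance between closely related members differed between the groups. Each of 4 pairs of relatives was compared as a log2 ratio of counts within a library, a quantity that does not depend on the scaling. KLF10 to KLF11, the TGF-beta-inducible pair, gave 1.085, 1.296 and 1.303 in DMSO and 3.74, 4.16 and 3.99 in AZD4573, so the ratio grew 6.67-fold. KLF3 to KLF12, the CtBP-binding pair, gave -0.09, -0.39 and -0.29 in DMSO and -1.76, -1.86 and -1.92 in AZD4573, a 3.01-fold smaller ratio. These pairs each held a gene that fell and a gene that rose with TMM scaling. KLF9 to KLF13 went from a mean of -5.60 ± 0.0530 to -6.54 ± 0.0595, a 1.92-fold smaller ratio, and KLF6 to KLF7 from 5.04 ± 0.0918 to 5.64 ± 0.0908, a 1.52-fold larger one (SD, n = 3). The groups did not overlap in any of the 4 pairs. An exact two-sided permutation test gave p = 0.1 for each, also after adjustment over the 4 pairs, which is the smallest value that 3 libraries against 3 allow, so this design cannot reach 0.05.

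**Figure D4:**
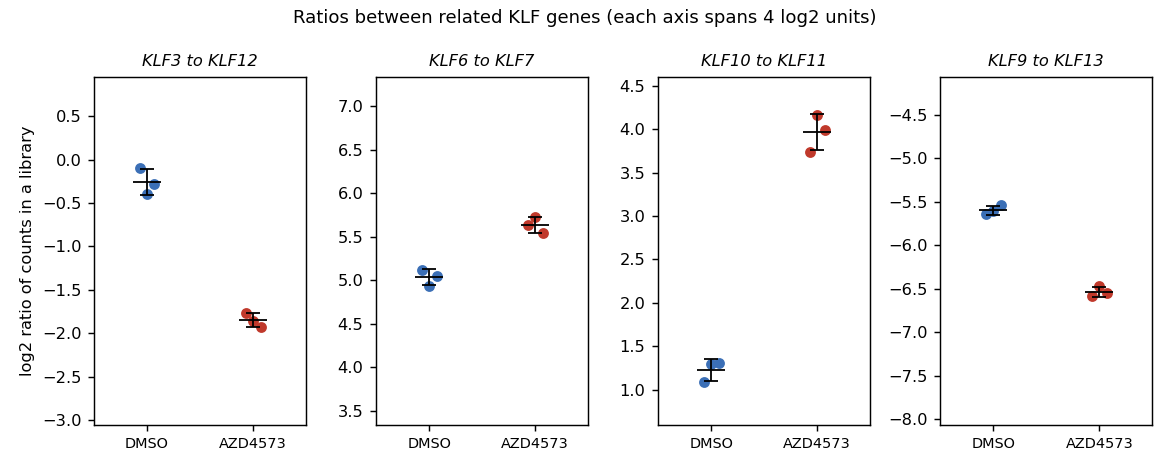
log2 ratio of the counts of related KLF genes within each library, in 4 panels whose axes each span 4 log2 units. Points are libraries (DMSO in blue, AZD4573 in red), and bars are the mean ± SD of 3. The shift between the groups is 2.74 for KLF10 to KLF11, -1.59 for KLF3 to KLF12, -0.94 for KLF9 to KLF13 and 0.60 for KLF6 to KLF7.

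Members with short genes went in both directions, and the 3 longest rose with TMM scaling. In the GENCODE 44 annotation KLF2 spans 3.86 kb, KLF10 6.94 kb, KLF6 9.29 kb, KLF16 11.18 kb and KLF11 11.99 kb, and this compact set holds both the deepest falls and the steepest rise. KLF9 (30.05 kb) and KLF3 (37.32 kb), near the median of 31.5 kb over 13423 coding genes tested, were lower, and the long genes KLF7 (99.72 kb), KLF13 (108.8 kb) and KLF12 (448.3 kb) were higher with TMM scaling. Over all coding genes the median log2 fold change was 0.06 for the 2669 genes under 10 kb, -0.13 for the 8320 from 10 to 100 kb and -0.01 for the 2434 longer ones.

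**Figure D5:**
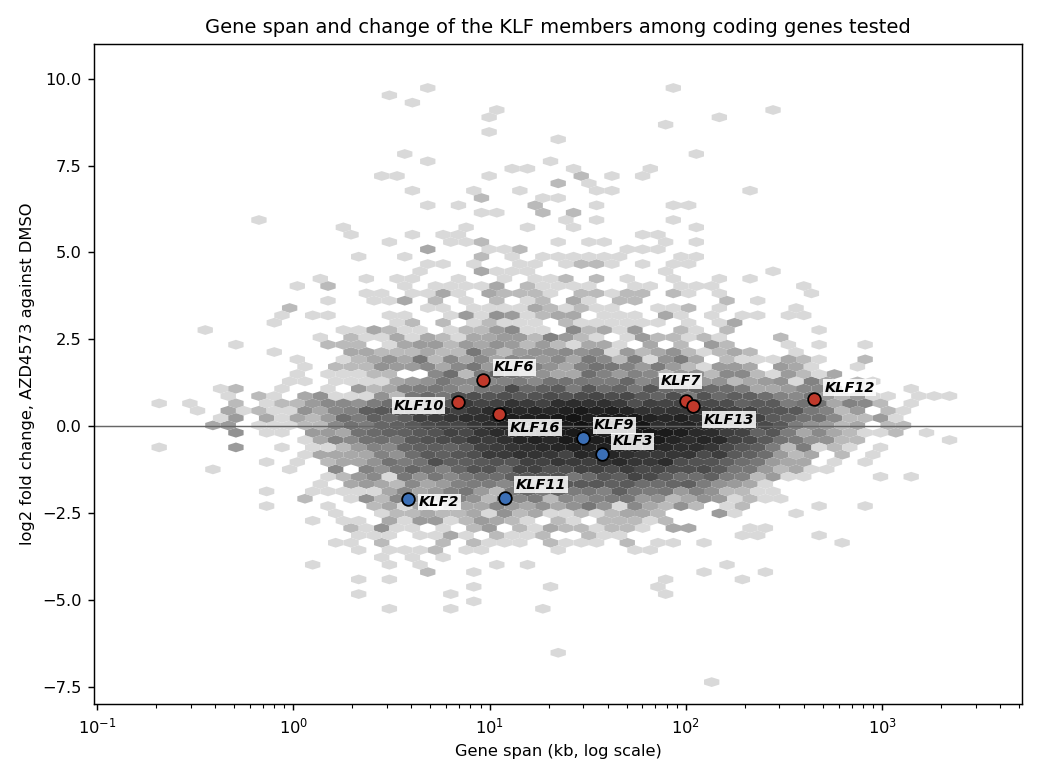
log2 fold change against gene span in kb (log axis) for 13423 coding genes tested, as grey hexagons that darken with the number of genes, with the 10 members on top in red (higher, TMM scaling) or blue (lower). KLF2 at 3.86 kb and KLF6 at 9.29 kb hold the lowest and the highest value of the 10, and the 3 longest members, KLF7, KLF13 and KLF12, lie above 0.

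The 3′ untranslated regions were long throughout. All 10 exceeded the median of 1249 bases over 13366 coding genes tested, from 1348 bases in KLF10 to 9401 in KLF12. The pentamer ATTTA, the core of AU-rich elements found in short-lived mRNAs, was counted in them on the sense strand. Its density was 2.42 per kb in KLF2, 2.58 in KLF11, 2.12 in KLF3 and 2.52 in KLF9, all above the median of 1.58 per kb. Among the members higher with TMM scaling it ran from 0.893 in KLF13, 0.971 in KLF16, 1.38 in KLF12 and 1.69 in KLF6 to 2.23 in KLF10 and 2.83 in KLF7, so the directions overlapped in this feature. The longer element TATTTAT, which contains the pentamer, occurred in 7 of the 10 members and in 34.1% of the coding genes. These counts of presence were not corrected for length, and all 10 members had regions longer than the median, so they show no enrichment.

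RefSeq promoters of 8 of the 10 members were examined. KLF3 had no usable entry, and the promoter of KLF10 is not reported here. The 250 bases before the RefSeq start were searched for the GC box (GGGCGG or its reverse complement CCGCCC) and the CACCC box (CACCC or GGGTG). These are the sequences that KLF and SP proteins bind. A GC box was present in 6 of the 8, beside 42.6% of 35116 promoters of that length. Windows with a box had a GC content of 72% to 86.4%, and the others, KLF7 and KLF9, 58% and 32.4%. The count was not corrected for GC content, so it shows no enrichment. KLF16 held 7, KLF2 and KLF12 4 each, KLF13 3, KLF6 and KLF11 2 each, and KLF7 and KLF9 had 0. The CACCC box occurred 5 times in KLF12, 2 times in KLF7 and 1 time in KLF13, beside 54.7% of all promoters with at least 1. The entry of KLF11 has its start 279 bases from that of the canonical transcript, and its window lies inside the annotated gene. Its 2 GC boxes may thus be transcribed rather than upstream. The KLF7 window (chr2:207165949-207166198) also lies inside its annotated gene, and the KLF6 window (chr10:3785210-3785459) does in part. Boxes in those stretches may likewise be transcribed. Apart from KLF11, KLF2 was the only examined member with a GC box that fell. KLF6, KLF12, KLF13 and KLF16, which rose with TMM scaling, had at least 1. GC boxes thus stood before genes of both directions. With the mitochondrial scaling KLF6 still rose, whereas KLF13 and KLF16 fell. The promoters of KLF2, the deepest fall, and of KLF13 and KLF16, which rose with TMM scaling, show such boxes. They are chr19:16324576-16324825 (plus strand), chr15:31326585-31326834 (plus strand) and chr19:1863580-1863829 (minus strand) in GRCh38.p14, written 5′ to 3′ on the gene's strand with GC boxes in capitals, which merge where boxes touch or overlap.
KLF2: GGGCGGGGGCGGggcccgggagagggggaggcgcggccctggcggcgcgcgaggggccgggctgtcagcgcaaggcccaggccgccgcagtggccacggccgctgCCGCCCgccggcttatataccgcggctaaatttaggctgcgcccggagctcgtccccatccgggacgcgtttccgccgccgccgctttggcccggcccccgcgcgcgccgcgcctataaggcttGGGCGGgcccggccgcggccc
KLF13: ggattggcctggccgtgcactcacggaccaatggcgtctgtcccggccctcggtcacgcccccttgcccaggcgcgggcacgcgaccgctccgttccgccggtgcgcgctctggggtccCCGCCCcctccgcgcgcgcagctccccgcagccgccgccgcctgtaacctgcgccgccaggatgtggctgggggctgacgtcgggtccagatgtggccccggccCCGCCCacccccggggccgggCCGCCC
KLF16: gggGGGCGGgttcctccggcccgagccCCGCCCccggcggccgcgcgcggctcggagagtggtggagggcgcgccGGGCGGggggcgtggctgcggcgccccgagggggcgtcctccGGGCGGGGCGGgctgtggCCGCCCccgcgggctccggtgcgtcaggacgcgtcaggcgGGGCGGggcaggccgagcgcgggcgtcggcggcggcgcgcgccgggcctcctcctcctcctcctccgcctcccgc
These windows have a GC content of 80%, 78.8% and 86.4%, against a median of 58% over all promoters. A match of letters is a description only, and no binding was measured here.

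Some members overlap other genes. Exon bases shared with a gene on the opposite strand numbered 265 of 6771 in KLF3 (with KLF3-AS1), 80 of 9616 in KLF7, 416 of 4594 in KLF11 and 483 of 2966 in KLF16. The supplementary methods name default settings for the counting, which do not use strand, so reads in these stretches cannot be assigned to a strand. KLF3-AS1 itself had at most 16 counts in a library. The KLF2 pseudogene KLF2P1 had at most 5, against 106 or more for KLF2.

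Genes tied to the family were followed as lists and are described by counts at an adjusted p under 0.05, to be read beside the 37.4% of all genes that were lower and the 37.3% that were higher. Of the 8 other KLF genes in the table, 3 were tested, and 2 were lower and 1 higher. KLF5, an activator that promotes proliferation in epithelia, fell from 11.5 ± 0.213 to 1.49 ± 0.244 CPM (log2 -2.96, adjusted p 1.64e-10). The erythroid factor KLF1 had 21 to 34 counts in DMSO and 6 to 8 in AZD4573 (log2 -1.41, adjusted p 0.00865). KLF8, a CtBP-binding repressor, had 16, 17 and 4 counts in DMSO and 15, 24 and 37 in AZD4573 (log2 1.43, adjusted p 0.0174), a call that was lost without DMSO replicate 3, without AZD4573 replicate 3 or with the mitochondrial scaling. KLF4, KLF14, KLF15, KLF17 and KLF18 did not pass the filter. KLF14 and KLF18 had 0 counts in all libraries, which allows up to 0.0382 to 0.0589 CPM, and such limits cover counting error only.

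Among the 9 SP genes, which share the zinc-finger domain and its sites, 7 were tested, with 6 lower and 1 higher and a median log2 fold change of -0.76. SP5 dropped from 26 to 49 counts to 0 to 5 counts (adjusted p 0.000164). SP9 fell from 1.82 ± 0.150 to 0.672 ± 0.122 CPM (log2 -1.43, adjusted p 2.38e-05), and SP6 rose from 0.593 ± 0.227 to 3.58 ± 0.304 CPM (log2 2.59, adjusted p 1.75e-07, or 1.86 with the mitochondrial scaling). All 3 were thus rare transcripts in these cells.

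Of 9 cofactors through which KLF proteins act, all tested, 6 were lower and 2 higher, with a median log2 fold change of -0.38. The acetyltransferases CREBBP and EP300, coactivators of the KLF2 and KLF6 type, fell from 102 ± 3.69 to 43.8 ± 1.47 CPM (log2 -1.22, adjusted p 1.64e-10) and from 133 ± 8.55 to 63.1 ± 4.55 CPM (log2 -1.08, adjusted p 2.83e-09). SIN3A, the corepressor bound by KLF9, KLF10, KLF11, KLF13 and KLF16, fell from 155 ± 2.31 to 76.6 ± 3.04 CPM (log2 -1.02, adjusted p 3.09e-10). Scaled to the mitochondrial mRNAs none of the 9 was higher. Of 5 ubiquitin ligases known to act on KLF proteins, 3 were lower and 1 higher (median -0.41). FBXW7 fell (log2 -1.22, adjusted p 7.01e-09), SMURF1 rose (log2 0.90, adjusted p 6.62e-09, or 0.16 with the mitochondrial scaling), and WWP1, a ligase for KLF2, fell (log2 -0.44, adjusted p 3.26e-06).

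Regulators known to act upstream of KLF2 were followed as 7 genes, of which 4 were lower and 1 higher (median -0.37). FOXO1, which activates KLF2 in resting T cells, fell from 24.1 ± 0.786 to 6.75 ± 0.855 CPM (log2 -1.84, adjusted p 4.98e-10). MAPK7, the ERK5 kinase, fell from 22.8 ± 0.893 to 11.3 ± 1.04 CPM (log2 -1.02, adjusted p 3.79e-08), and its substrate MEF2A from 33.7 ± 0.874 to 19.1 ± 0.270 CPM (log2 -0.82, adjusted p 1.39e-08). Among 8 trafficking and quiescence genes tied to KLF2 in T cells, 4 were lower and 3 higher (median -0.21), the 3 no longer higher with the mitochondrial scaling. The interleukin-7 receptor gene IL7R was rare and went from 41 to 48 counts in DMSO to 4 to 8 in AZD4573 (log2 -2.36, adjusted p 7.71e-05). The sphingosine-1-phosphate receptors S1PR1 and S1PR4, which guide lymphocyte egress and migration, fell from 2.19 ± 0.317 to 0.930 ± 0.279 CPM (log2 -1.22, adjusted p 0.000227) and from 84.0 ± 4.53 to 38.0 ± 3.72 CPM (log2 -1.15, adjusted p 4.04e-09).

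All 8 genes listed for TGF-beta signalling, which induces KLF10 and KLF11, were called, with 6 lower and 2 higher and a median of -0.36. The receptors TGFBR1 and TGFBR2 fell from 40.3 ± 0.953 to 11.2 ± 1.31 CPM (log2 -1.85, adjusted p 2.11e-10) and from 14.7 ± 0.107 to 4.39 ± 1.19 CPM (log2 -1.75, adjusted p 6.22e-08). SMAD7, the inhibitory SMAD that is itself induced by the pathway, rose from 14.7 ± 1.06 to 89.4 ± 9.02 CPM (log2 2.61, adjusted p 2.30e-11). With the mitochondrial scaling its log2 fold change was 1.87 (adjusted p 1.68e-12).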

How the data were processed

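The deposited table holds estimated counts per gene, which the authors made by trimming reads with Cutadapt 2.3, aligning them with STAR 2.7.8a to GRCh38 and counting with RSEM 1.3.3. The values were whole numbers and were used as deposited. Per the labels, poly(A) RNA was selected before library preparation, whereas the study's supplementary methods describe removal of ribosomal RNA.

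Counts were tested in R 4.3.3 with edgeR 4.0.16 (TMM factors, filterByExpr with a minimum count of 10, quasi-likelihood test, 3 AZD4573 against 3 DMSO libraries). P-values were adjusted by Benjamini-Hochberg over the 17678 genes tested, and genes with an adjusted p under 0.05 were called. Ratios between members had 0.5 added to both counts and were compared by an exact permutation test. The edgeR and DESeq2 fits were also run on simulated counts in which few genes changed, as many up as down. Such counts do not check the scaling, since far more genes were called in these data. The alternatives were DESeq2 1.42.0, other scalings, other filters, a fold of at least 1.5, a replicate block and leaving out each library. Gene models were from GENCODE 44 and promoters from RefSeq (GRCh38.p14). No protein sequences were used.

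The members and lists were chosen with earlier results of these data known. All 10 members are named, and of each list the up to 3 called genes with the largest absolute log2 fold change. KLF8 and the genes without a call are named to account for small counts, and the markers to check the label. A further marker of other cells is not reported here, for a reason unrelated to its value. With 52101868 to 76571157 counts a library, 3 counts correspond to 0.0382 to 0.0589 CPM after TMM scaling. Libraries of a group differed by more than sampling noise (chi-square per degree of freedom 5.29 to 19.4), so none was a copy. Deviations from the group mean were hardly correlated between libraries of the same replicate number (-0.01, 0.07 and -0.02). Whether equal numbers mark pairs is not known.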

Additional observations from a re-analysis of the deposited data

How the results depend on the processing

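Of 130 values of the members under the alternative fits, 125 kept their direction and call, and all 120 that did not use the mitochondrial scaling did so. The limit of a fold of at least 1.5 is not among these, and with it 3 members were lower and 4 higher. Scaled to the mitochondrial mRNAs, KLF7 (log2 -0.022), KLF10 (-0.060), KLF13 (-0.16) and KLF16 (-0.38) turned, KLF12 (0.04) was no longer called, and 1 member was higher and 6 lower. All genes were then 11878 lower and 2144 higher, against 6606 and 6596 with TMM scaling. In the lists this scaling left 0 other KLF genes, 0 cofactors, 0 regulators upstream of KLF2, 0 KLF2-linked genes and 1 TGF-beta gene higher, and made 7 KLF2-linked genes lower. Requiring a fold of at least 1.5 gave 4191 lower and 4012 higher genes. With at least 10 counts in every library, 1 other KLF gene was lower and 0 higher, and 2 upstream regulators were higher. Library size alone left 1 KLF2-linked gene higher. Leaving out each library gave 0 to 1 other KLF genes higher (0 without DMSO replicate 3 or AZD4573 replicate 3) and 1 to 2 upstream regulators higher (2 without AZD4573 replicate 1). The causes were not tested, except that the stricter filter tests fewer genes. With the replicate number as a block, 4 members were lower and 6 higher, and 6524 and 6447 of all genes, and the mean differences of the ratios were the same (KLF10 to KLF11 2.74, adjusted exact p 0.25, the smallest that 3 pairs allow). The block changed no call of a member, and the numbers are not known to mark a shared culture. Depth was not varied, and the calls of KLF1 and KLF8 rest on 6 to 34 and 4 to 37 counts a library.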
